A study of Homo sapiens with 4 samples.

Results

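The metallothioneins are a family of small cysteine-rich proteins that hold zinc, copper and cadmium ions in clusters of thiolate groups. Their genes are induced when free zinc rises in the cytosol, because the zinc-sensing transcription factor MTF1 then binds metal response elements in their promoters, and they also respond to glucocorticoids and to oxidants. SLC30A1 (ZnT1) is a plasma membrane transporter that moves zinc out of the cell, and its gene answers to MTF1 as well. Storage in metallothioneins and export through SLC30A1 are among the ways in which a cell lowers its free zinc. The genes described here are 7 metallothioneins (MT1E, MT1F, MT1G, MT1H, MT1M, MT1X and MT2A) and SLC30A1, 8 of the 19775 genes named on the array. They were chosen by name, and every probe set that the platform annotation gives to one of them was taken, 14 in all.

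The cells were MDA-MB-361, an established human breast cancer line. All 4 cultures carried the puromycin-resistance lentiviral vector pLKO. In 3 of them the vector expressed an shRNA (short hairpin RNA) against DCD, the gene of dermcidin, and the other was the pLKO control. The paper names its 3 hairpins, with different target regions in the transcript, IBC-I, IBC-II and IBC-III. The labels number the shDCD cultures as clones 1, 2 and 3 and give no hairpin name. Clones 1, 2 and 3 are called IBC-I, IBC-II and IBC-III here, a match by number that the labels do not state. Each culture was measured once, on an Affymetrix U133 Plus 2.0 array, so the groups were 3 shDCD arrays and 1 pLKO array. The control has no replicate, each hairpin is 1 cell derivative, and the same pLKO array enters all 3 comparisons.

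The deposited values are linear intensities, which were quantile normalized here, and normalized values under a floor of 16 were set to 16. DCD itself had deposited intensities between 2 and 7 on the 4 arrays, under the floor on all of them, so the arrays do not check the knockdown. The 3' to 5' ratio of the ACTB control probe sets, which is high in degraded or incompletely labelled RNA, was 2.58 in IBC-II, 5.29 in pLKO, 9.67 in IBC-I and 42.6 in IBC-III, and IBC-III stood apart from the other arrays (Pearson r of 0.70 to 0.78 with each of them over 27307 probe sets, against 0.89 to 0.94 among the others). All 8 luminal epithelial markers were above the floor on all 4 arrays, with summed normalized intensities of 14965 in pLKO and 21020 to 25668 in the shDCD arrays. Of the 3 basal markers with a probe set, KRT5 and KRT14 were at the floor on all 4 arrays, and the 3 summed to 89.1 in pLKO and to 48 to 66.3 in the shDCD arrays, where 48 is the floor for 3 genes. Of 3 leukocyte markers CD14 was at the floor on all 4, none was above it on all 4, and 2 of 4 fibroblast markers were above it on all 4, with the 4 markers summing to 235 in pLKO and to 246 to 519 in the shDCD arrays. The part of these differences in the results below was not tested.

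The promoters of 4 of the 8 genes (MT2A, MT1H, MT1X and SLC30A1) were read from RefSeq on GRCh38.p14, each from 250 bases before the start of transcription to 50 after it, and they are shown because the metal response element is what the family shares. The metallothionein promoters lie on the plus strand at chr16:56608334-56608633 (MT2A), chr16:56669564-56669863 (MT1H) and chr16:56682220-56682519 (MT1X), and that of SLC30A1 lies on the minus strand at chr1:211579112-211579411. Capitals mark matches to the core of the metal response element, TGCACNC or TGCGCNC, on either strand.
MT2A: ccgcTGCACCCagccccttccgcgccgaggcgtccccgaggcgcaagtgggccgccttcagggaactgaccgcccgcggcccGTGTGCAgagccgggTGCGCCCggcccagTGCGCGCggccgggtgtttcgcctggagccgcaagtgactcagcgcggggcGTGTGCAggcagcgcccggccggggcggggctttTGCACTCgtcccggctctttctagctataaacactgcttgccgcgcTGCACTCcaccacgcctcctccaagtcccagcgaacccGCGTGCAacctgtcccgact
MT1H: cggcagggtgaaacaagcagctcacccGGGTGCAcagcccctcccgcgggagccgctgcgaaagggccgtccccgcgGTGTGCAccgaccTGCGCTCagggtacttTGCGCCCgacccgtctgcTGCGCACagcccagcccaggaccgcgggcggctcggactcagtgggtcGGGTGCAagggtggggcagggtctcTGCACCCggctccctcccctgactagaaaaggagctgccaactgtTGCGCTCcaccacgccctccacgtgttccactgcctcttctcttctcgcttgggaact
MT1X: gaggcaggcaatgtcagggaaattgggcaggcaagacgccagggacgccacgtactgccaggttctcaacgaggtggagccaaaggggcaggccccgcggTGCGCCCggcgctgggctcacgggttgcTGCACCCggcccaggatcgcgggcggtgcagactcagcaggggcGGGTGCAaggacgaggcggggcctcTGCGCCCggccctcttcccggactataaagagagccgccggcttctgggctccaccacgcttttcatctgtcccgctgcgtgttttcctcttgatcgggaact
SLC30A1: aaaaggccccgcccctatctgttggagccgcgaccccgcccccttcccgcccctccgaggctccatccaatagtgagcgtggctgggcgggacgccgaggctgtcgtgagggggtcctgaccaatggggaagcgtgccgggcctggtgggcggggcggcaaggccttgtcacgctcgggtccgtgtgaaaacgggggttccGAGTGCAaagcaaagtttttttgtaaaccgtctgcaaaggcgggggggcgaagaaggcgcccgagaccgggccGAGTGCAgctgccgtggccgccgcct
MT2A and MT1H held 8 matches each, MT1X held 4 and SLC30A1 held 2. Of the 35116 RefSeq promoters of the same length, 29.6% held at least 1 match, 8.60% at least 2, 0.601% at least 4 and 0.0199% at least 8. In MT2A 7 of the matches lay before the start and 1 lay at positions 31 to 37 after it, in MT1H and MT1X all of them lay before it, and in SLC30A1 they lay at -49 to -43 and 25 to 31. A TATAAA box was found at -29 to -24 in MT2A and at -30 to -25 in MT1X, and TATAAA was found on either strand in 11.5% of promoters. The core of the antioxidant response element, TGACNNNGC, was matched 1 time each in MT2A, MT1X and SLC30A1 and 0 times in MT1H, against 13.3% of promoters with any match. The core of the hypoxia response element, ACGTG or GCGTG, was matched 3 times in each of the 4, where 10.1% of promoters held at least 3 and 48.4% at least 1. In MT2A 2 of the 3 matches overlapped a metal response element. In MT1H 2 of the 3 were the same stretch read on opposite strands, at 12 to 16 and 13 to 17. These matches are letters in a window and say nothing of binding in these cells.

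Of the 7 metallothioneins 6 were measured above the floor in MDA-MB-361 cells and MT1M was at it, and after quantile normalization their levels on the shDCD arrays lay mostly within 2-fold of pLKO. Of 11 metallothionein probe sets, 9 had a mean log2 level at or above that of the median probe set and entered the tests, reading MT1E, MT1F, MT1G, MT1H, MT1X and MT2A. All 9 were lower than pLKO in IBC-II (8 on the values as deposited), by 1.17-fold to 1.91-fold, where 47.7% of all probe sets tested were lower. In IBC-I 4 of 9 were lower (49% of all) and in IBC-III 5 of 9 (50.1% of all), and under the other scalings run all 9 were lower in each of these. No probe set of any of the 8 genes was called by limma against pLKO, with a smallest adjusted p of 0.9998, and 0 had an unadjusted p under 0.05, as had 0.458% (lower) and 0.297% (higher) of all probe sets. In these bulk samples fewer expressing cells and less RNA per cell cannot be told apart.

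MT2A, in most human tissues the main metallothionein, is read by 1 probe set. It stood at a normalized intensity of 2015 in pLKO, against 2140, 1176 and 2074 in IBC-I, IBC-II and IBC-III. IBC-II was the low array and the other three, pLKO included, lay within 1.06-fold of each other. The log2 differences of the 3 from pLKO, in that order, were 0.09, -0.78 and 0.04, with a mean of -0.22 ± 0.49 (SD, n = 3 comparisons). limma gave that mean a 95% interval from -1.82 to 1.39 and an adjusted p of 0.9998. Without IBC-II the mean was 0.06. The intensities as deposited were 1796, 2169, 1006 and 2869 in IBC-I, IBC-II, IBC-III and pLKO, so that pLKO was the highest and IBC-III the lowest before normalization.

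MT1X, another widely expressed member that lies at the end of the gene cluster on chromosome 16, is read by 2 probe sets. The brighter one had normalized intensities of 946, 581, 809 and 1005 in IBC-I, IBC-II, IBC-III and pLKO. pLKO was highest, and the log2 differences were -0.09, -0.79 and -0.31 (mean -0.40 ± 0.36, SD, n = 3 comparisons, limma adjusted p of 0.9998). The other probe set, whose listed accession belongs to the related gene MT1L in RefSeq, had 498, 375, 781 and 510, and its differences were -0.03, -0.44 and 0.62. The 2 probe sets thus shared the lower value in IBC-II and differed in sign in IBC-III.

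MT1H, MT1G, MT1F and MT1E are inducible isoforms from the same cluster, whose transcripts are close in sequence. For MT1H the normalized intensities were 481, 213, 422 and 404 in IBC-I, IBC-II, IBC-III and pLKO. IBC-II was again the low array, 1.90-fold under pLKO, and the mean over the hairpins was -0.20 ± 0.63 (SD, n = 3 comparisons), or 0.16 without IBC-II. MT1G had 339, 188, 216 and 269 in the same order, with IBC-I above pLKO and the other shDCD arrays under it. Its mean difference was -0.16 ± 0.44 (SD, n = 3 comparisons), or 0.01 without IBC-II.

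MT1F was lower than pLKO on every shDCD array by both of its probe sets. The brighter one had normalized intensities of 202, 139, 146 and 222 in IBC-I, IBC-II, IBC-III and pLKO, with log2 differences of -0.14, -0.68 and -0.61 (mean -0.47 ± 0.30, SD, n = 3 comparisons). The other had 139, 126, 47.7 and 239, with differences of -0.78, -0.93 and -2.33 (mean -1.35 ± 0.85, SD, n = 3 comparisons). That last value, 5.01-fold under pLKO in IBC-III, was the lowest of any member in any comparison and the only one past 3-fold after quantile normalization, a size that 10.2% of all probe sets reached downwards in IBC-III. limma gave this probe set the smallest unadjusted p of the 8 genes, 0.13 (adjusted p of 0.9998). MT1E showed a like split between its probe sets. One had 140, 94.6, 61.9 and 133.2, a difference of -1.11 in IBC-III, and the other had 98.8, 75.2, 90.95 and 87.7, a difference of 0.05 there. Their mean differences were -0.51 ± 0.59 and 0.00 ± 0.20 (SD, n = 3 comparisons).

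Where a gene had 2 tested probe sets, their log2 differences from pLKO lay 0.05 to 0.65 apart in IBC-I and IBC-II. In IBC-III they lay 0.46 apart for SLC30A1, 0.93 for MT1X, 1.16 for MT1E and 1.72 for MT1F, wider than in the other comparisons for the 3 metallothioneins but not for SLC30A1. All 9 tested metallothionein probe sets carry the suffix _x_at, which Affymetrix gives to probe sets with probes that may bind other transcripts, so isoforms may share signal and the 9 are not independent readings of 6 genes. No member probe set is annotated to more than 1 gene. A further MT1G probe set, with deposited intensities of 25.7, 17.6, 2.9 and 4.5 in IBC-I, IBC-II, IBC-III and pLKO, lay under the level needed for testing. MT1M, read by 1 probe set with 5, 2.2, 1.2 and 1, was at the floor on all 4 arrays.

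**Figure D1:**
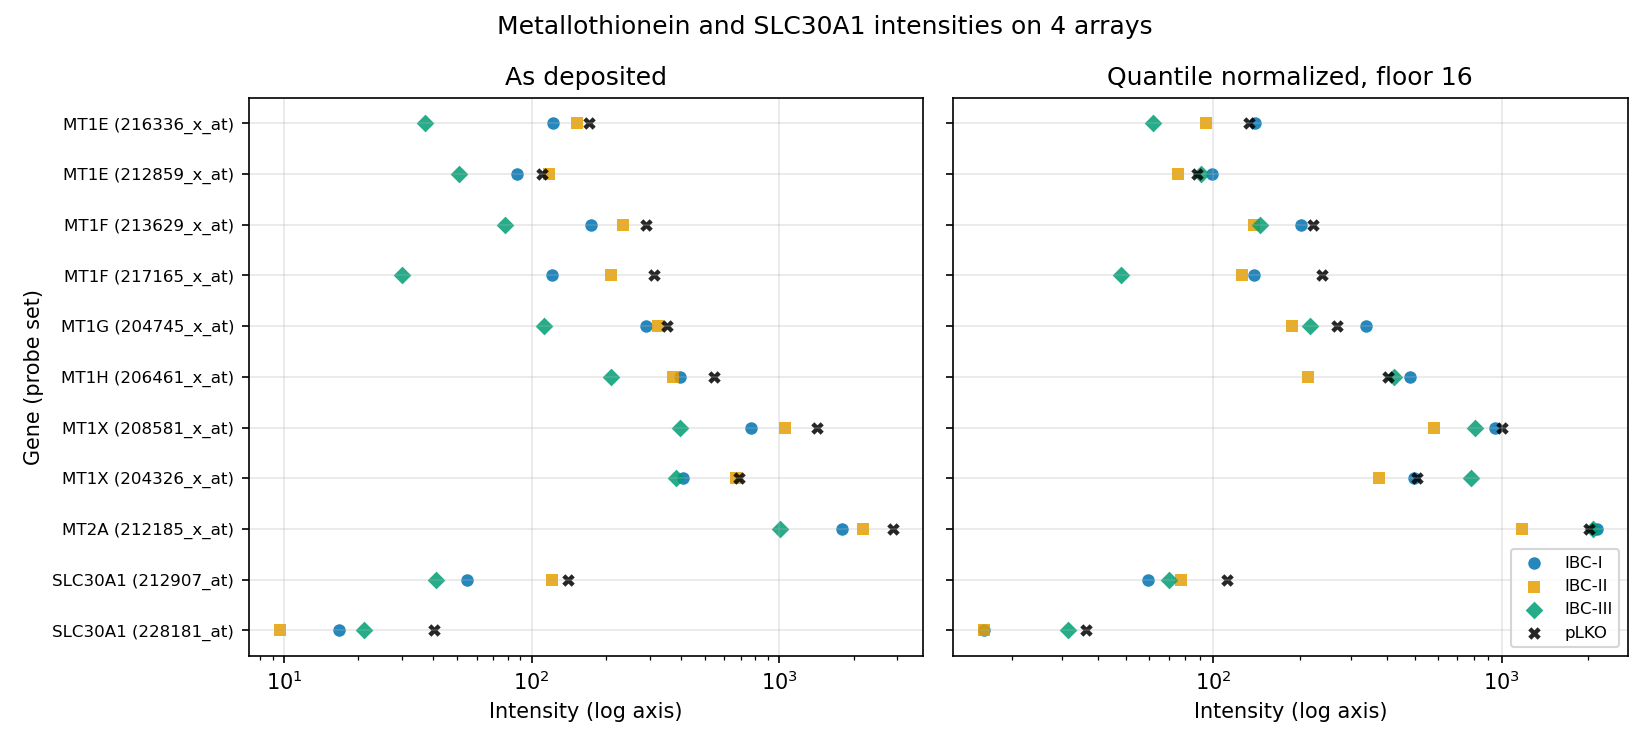
Intensity (log axis) of the 11 tested probe sets of the metallothioneins and SLC30A1 as deposited (left) and after quantile normalization (right), with 1 point for each of the 4 arrays and no error bars because each array is a single measurement. IBC-III is the lowest array in 9 of 9 metallothionein probe sets as deposited, IBC-II is the lowest in 7 of 9 after normalization, and pLKO is the highest for both SLC30A1 probe sets in either panel.

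SLC30A1, the zinc exporter, was lower than pLKO on all 3 shDCD arrays by both tested probe sets under each of the 3 scalings run, and among the 7 genes tested MT1F was the only other one of which that held. The brighter probe set had a normalized intensity of 111 in pLKO, against 59.5, 77.3 and 70.1 in IBC-I, IBC-II and IBC-III. pLKO stood above the 3 shDCD arrays, which did not reach it, and the folds under pLKO were 1.87, 1.44 and 1.59. As deposited the intensities were 54.8, 121, 41 and 140.2, with pLKO again the highest. The log2 differences averaged -0.70 ± 0.19 (SD, n = 3 comparisons), with a limma 95% interval from -2.19 to 0.79 and an adjusted p of 0.9998. After quantile normalization the SD of this probe set over the hairpins was the smallest of the tested members, that of the second MT1E probe set (0.20) being next. Under the other scalings its 3 differences lay further apart. In IBC-I, IBC-II and IBC-III they were -1.31, -0.47 and -1.15 after centring, and -1.36, -0.21 and -1.77 as deposited. The second SLC30A1 probe set was at the floor in IBC-I and IBC-II, at least 2.26-fold under its pLKO level of 36.2, and at 31.3 (1.16-fold lower) in IBC-III. The third was at the floor on all 4 arrays, with deposited intensities of 1 to 3.4. Of all probe sets tested, 20% were lower than pLKO in all 3 comparisons.

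Neither SLC30A1 nor a metallothionein was called by the fold rule of the study, which asks for a 3-fold difference or more on every shDCD array. It was applied here to the quantile normalized values with their floor. The paper analyzed its data with dChip, and its methods also ask for statistically significant differences, which were not asked for here. The counts below are therefore not those of the paper. Over all probe sets 49 were called lower (0.179%) and 10 higher (0.0366%), and at 2-fold in each comparison 0.769% were lower, again with 0 members. In single comparisons 2 metallothionein probe sets, of MT1E and MT1F, were at least 2-fold under pLKO in IBC-III, where 21.3% of all probe sets were. The second SLC30A1 probe set was at least 2-fold under pLKO in IBC-I and in IBC-II, where 10.2% and 4.09% of all were.

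The direction of the metallothioneins in IBC-I and IBC-III depended on how the arrays were scaled, whereas in IBC-II it hardly did. After quantile normalization 3 of the 9 probe sets were lower than pLKO in all 3 comparisons (20% of all) and 0 were higher in all 3 (19.4% of all). With each array centred on its median instead, 9 of 9 were lower in every comparison, where the lower probe sets were 66.2% of all for IBC-I, 42.2% for IBC-II, 61.7% for IBC-III and 24.8% for all 3. On the values as deposited, 9 were lower for IBC-I, 8 for IBC-II, 9 for IBC-III and 8 for all 3, against 68.5%, 26.6%, 79.6% and 19.5% of all. The exception in IBC-II was the second MT1E probe set, 0.09 higher than pLKO on the log2 scale. Among the 8 lower ones the other MT1E probe set (-0.15), MT1G (-0.11) and the second MT1X probe set (-0.04) lay close to 0 as deposited. The rest lay between -0.58 and -0.30. The median log2 difference of all probe sets, which quantile normalization had put at 0 for IBC-I and IBC-II and at -0.0019 for IBC-III, was -0.33, 0.08 and -0.36 after centring and -0.38, 0.36 and -0.91 as deposited.

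The comparison was also made with the 8684 probe sets in the range of mean level of the metallothioneins, a group chosen after seeing the data. After quantile normalization the share of these lower than pLKO was 47.3% for IBC-I, 47.9% for IBC-II, 53.8% for IBC-III and 20.9% for all 3. With median centring the shares were 79.7%, 35.6%, 75% and 25.9%. On the deposited values they were 81.6%, 18.3%, 88.4% and 15.4%. In IBC-II, where 9, 9 and 8 of the 9 metallothionein probe sets were lower under the 3 scalings, 47.9%, 35.6% and 18.3% of the probe sets of like brightness were, and among the 2593 tested probe sets with the suffix _x_at, likewise chosen after seeing the data, 48.9%, 44.2% and 28.8% were. The metallothionein median in IBC-II was -0.68 after quantile normalization, -0.56 after centring and -0.30 as deposited. In IBC-I it was 0.07, -0.63 and -0.68, and in IBC-III -0.31, -1.03 and -1.65. The 3' to 5' ratio of GAPDH was 1.02 in IBC-II and 1.09 in pLKO, against 2.18 in IBC-I and 13.1 in IBC-III, whereas that of ACTB was under the pLKO ratio in IBC-II and over it in IBC-I and IBC-III. The part of RNA quality in these values was not tested.

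**Figure D2:**
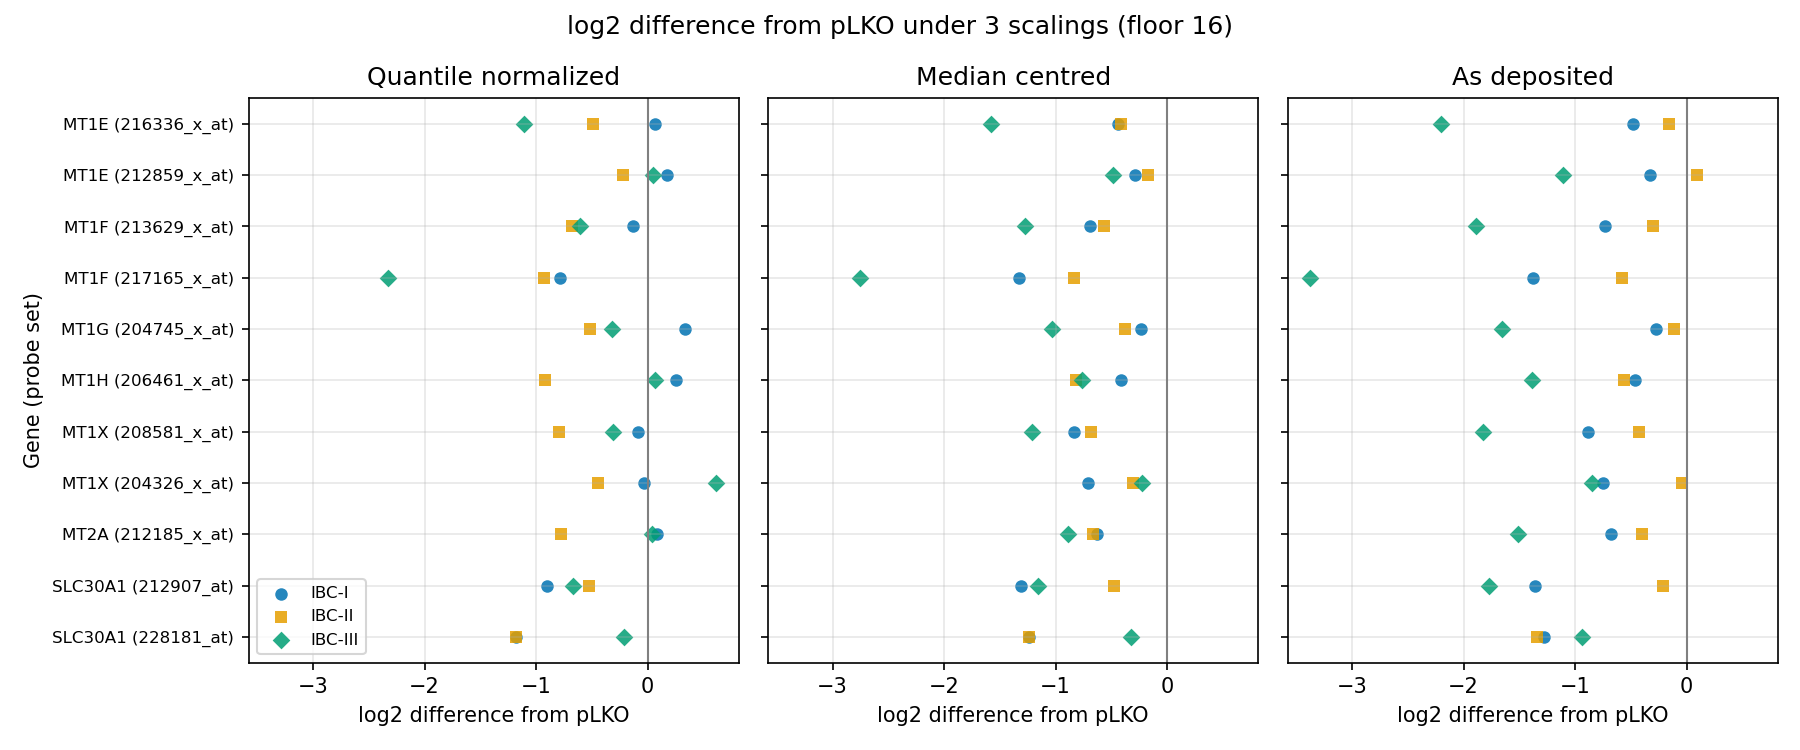
Log2 difference from pLKO of each tested probe set of the metallothioneins and SLC30A1 in the 3 comparisons (points), under 3 scalings of the arrays, with no error bars because each comparison is 1 array against 1 array. The metallothioneins lie on both sides of 0 in IBC-I and IBC-III after quantile normalization and under 0 after centring, and SLC30A1 lies under 0 in every comparison and scaling.

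Other genes of zinc handling did not share a direction. Of 9 other metallothionein genes, 2 were tested. The MT1H-like gene MT1HL1 differed by 0.08, -0.83 and -1.14 in IBC-I, IBC-II and IBC-III, and MT3, known from brain, by -0.98, -0.51 and 0.36, so that each was under pLKO in IBC-II. Of the other zinc exporters of the SLC30 family, 7 of 9 were tested, with 0 lower and 2 higher in all 3 comparisons and a median of the mean differences of -0.01. These counts take the brightest probe set of each gene. Of the 4 tested SLC30A5 probe sets 2 were lower in all 3, and of the 3 of SLC30A7, counted as higher, 1 was higher in all 3. SLC30A4, a transporter of vesicles, was at the floor in pLKO and in IBC-III and was at least 1.76-fold higher in IBC-I and at least 3.22-fold higher in IBC-II, and SLC30A2, known from zinc secretion into milk, differed by 0.72, 0.28 and 0.78. limma called neither.

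Among the SLC39 zinc importers 12 of 14 were tested, with 4 lower and 4 higher in all 3 comparisons and a median of -0.20. For SLC39A3, counted as higher, the dimmer of 2 tested probe sets was lower in all 3. For SLC39A6 1 of 4 and for SLC39A8 1 of 2 was higher in all 3. Over all 12728 genes tested, 21.3% were lower and 18.8% higher in all 3, with a median of -0.06, and the 7 tested genes described here had 3 lower, 0 higher and a median of -0.40. SLC39A10, an importer of the plasma membrane, differed by -1.51 in IBC-I and -0.49 in IBC-II and lay at least 5.08-fold under pLKO in IBC-III, where it was at the floor. SLC39A4, the importer of dietary zinc in the gut, differed by -1.44 and -0.45 and, likewise at the floor, by at least 2.74-fold in IBC-III. MTF1, the zinc sensor, differed by -0.47, 0.30 and -0.40 by the brightest of its 3 tested probe sets, and 1 of the 3 was lower than pLKO in all 3 comparisons, so that its probe sets differed in sign in IBC-II. limma gave adjusted p-values of 0.9998 for all of them.

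Genes of other metals and of the remaining known inducers of metallothioneins varied as widely. In copper handling 0 of 7 tested genes were lower and 1 was higher in all 3 comparisons. The copper chaperone ATOX1 differed by -0.17 in IBC-I and 0.61 in IBC-II and lay at least 9.78-fold under pLKO in IBC-III, where it was at the floor, and the copper pump ATP7A differed by 1.45, 0.27 and 0.90. In iron handling 0 of 6 were lower and 2 higher, with the iron exporter SLC40A1 at 1.19, 1.06 and 0.44 and the iron importer SLC11A2 at 0.53, 0.28 and 1.70. Of 9 tested genes of metal and oxidant stress 2 were lower and 0 higher. The cystine transporter subunit SLC7A11 differed by -2.80, -1.53 and 0.13, the chaperone gene DNAJB1 by -0.58, -0.29 and -0.94, and HMOX1, the heme oxygenase that metals and oxidants induce, by -0.64, -0.03 and 1.06. Of 6 tested glucocorticoid response genes 0 were lower and 3 higher, among them KLF9 (0.76, 0.29 and 1.37) and ZBTB16 (1.00, 0.21 and 0.88), both transcription factors. However, the dimmer of the 2 tested KLF9 probe sets was lower than pLKO in all 3 comparisons. ZBTB16 lay near the floor, at a normalized 18.5 in pLKO and 21.4 in IBC-II. SGK1, the remaining higher gene, was at the floor in pLKO and at 21.6 to 28.7 on the shDCD arrays. All tested probe sets counted, 1 of 2 was higher in all 3 for ATP7A and for SLC40A1 and 1 of 5 for SLC11A2, while 2 of 2 were lower in all 3 for DNAJB1 and 1 of 3 for SLC7A11. Probe sets dimmer than the brightest also went against some counts of 0. In iron handling 1 of 2 was lower in all 3 for FTL. In copper handling 1 of 3 was lower and 1 of 3 higher for SLC31A1. Among the glucocorticoid response genes 1 of 2 was higher for FKBP5. No gene of any list was 2-fold or more from pLKO the same way in all 3 comparisons, and 0 were called by limma at an adjusted or an unadjusted p under 0.05.

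**Figure D3:**
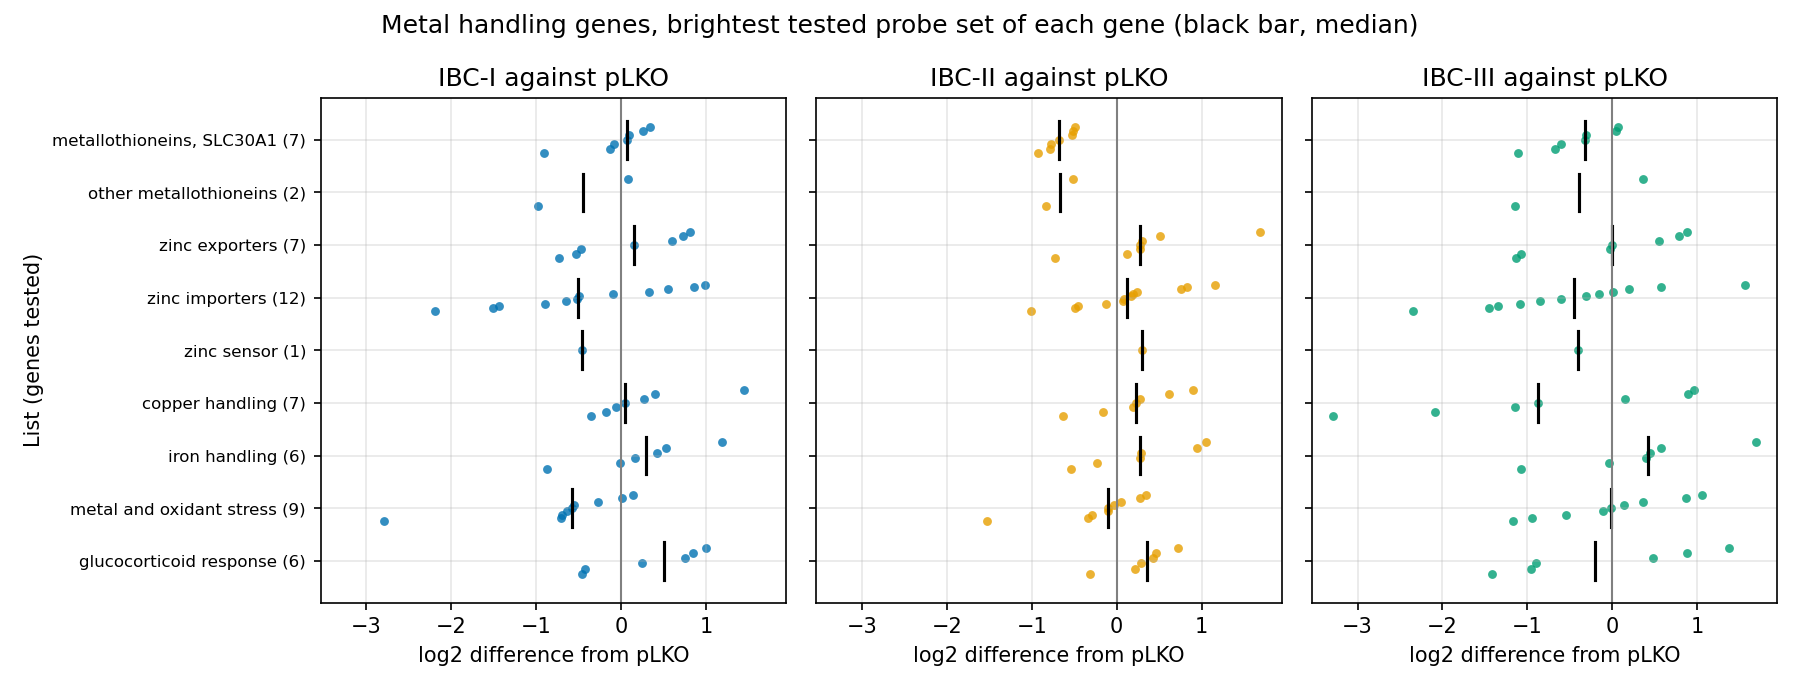
Log2 difference from pLKO of each tested gene (points) in the lists of metal handling and of metallothionein inducers, by comparison, with the median of each list marked. The lists spread to both sides of 0, and the metallothioneins with SLC30A1 have medians of 0.07, -0.68 and -0.32 from left to right.

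The genes whose 3 differences lay nearest to those of MT2A, by the root mean square difference over the 3 comparisons, were WRN, LYRM1, ORAI3, CENPBD2P and LOC101929550, at 0.009 to 0.060 log2 units. There were 200 of 12720 genes within 0.25. Within the family MT1H lay at 0.13, MT1X at 0.23, MT1G at 0.29, MT1F at 0.40 and MT1E at 0.68, and SLC30A1 lay at 0.72. The nearest genes to SLC30A1 were NAPA-AS1, MCOLN3, DERL2, NAGLU and COX18, at 0.021 to 0.062, with 213 of 12719 genes within 0.25. Since only 3 comparisons with a shared control enter the measure, it describes these arrays alone.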

How the data were processed

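Total RNA of MDA-MB-361 cells was measured on 4 Affymetrix U133 Plus 2.0 arrays, and the authors deposited 1 linear intensity for each of 54675 probe sets on each array. dChip is the program named in the paper's methods, but the sources used here do not name the program that produced these intensities. Array medians were 13.4 to 24.7 and from 39.3% to 55.1% of probe sets lay under the floor of 16, so the values were taken as not normalized between arrays. Precision is limited by the number of arrays. Intensities of 0 were set to 0.1, log2 values were quantile normalized with limma 3.58.1 (R 4.3.3), and values under 16 were set to 16. After 62 control probe sets were left out, tests covered 27307 probe sets, those whose mean log2 value was no lower than the median probe set's.

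Each shDCD array was compared with pLKO, and a probe set was called where it differed 3-fold or more, the same way, on every shDCD array. limma was also fitted to shDCD against pLKO with Benjamini-Hochberg adjustment over all probe sets tested, on 2 residual degrees of freedom, with the lone pLKO array taken to vary as the shDCD arrays do. Its p-values measure only the spread between these arrays, which carry different hairpins. The platform annotation gave 1 gene for 41097 probe sets, several for 1801 and none for 11777. Symbols were updated through the GRCh38.p14 RefSeq table. A gene in a list was represented by its brightest tested probe set (12728 genes). In each list the genes at least 2-fold different the same way in all 3 comparisons were to be named, or otherwise the 2 with the largest absolute mean difference, with MTF1, SLC39A10 and HMOX1 always named. The members, lists, motifs and naming rule were chosen with earlier results of these data known. Alternatives were median centring, the values as deposited, floors of 1 and 64, no filter, an upper quartile filter, a 2-fold rule, each shDCD array left out, averaging the probe sets of each gene, and no _x_at probe sets. The scripts were tested on simulated data. Figures were drawn with matplotlib 3.10.9.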

Additional observations from a re-analysis of the deposited data

How the results depend on the processing

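The median of the mean log2 differences of the 9 metallothionein probe sets was -0.22, and it was -0.73 with median centring and -0.86 on the values as deposited, and with each shDCD array left out in turn it ran from -0.43 (without IBC-I) to 0.010 (without IBC-II, of opposite sign), with -0.34 without IBC-III. The number of them lower in all 3 comparisons was 3, and it was 9 with centring, 8 as deposited, and 3 to 5 with an array left out (5 without IBC-I). The 3-fold rule called 49 probe sets lower and 10 higher. It called 90 lower with centring, 96 as deposited, 22 with a floor of 64 and 19 with the upper quartile filter, and 246 higher with a floor of 1 and 3 with a floor of 64. At 2-fold the counts were 210 and 173, and with each shDCD array left out they were 88 to 360 lower (360 without IBC-II, 100 without IBC-III) and 27 to 198 higher, where only 2 comparisons had to pass. limma called 0 probe sets, but 389 lower and 4 higher with a floor of 64 and 1308 and 18 with no filter, and 363 of those 393 and 1221 of those 1326 had equal values on all 3 shDCD arrays. None of them belonged to a member.

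All 6 list medians took other values under the alternatives. Over all probe sets tested the median of the mean differences was -0.02, and it was -0.22 with centring and -0.35 as deposited. With centring and as deposited, iron handling (0.31) was at -0.16 and -0.29, metal and oxidant stress (-0.35) at -0.77 and -0.91, the zinc exporters (-0.01) at -0.11 and -0.24, the zinc importers (-0.20) at -0.49 and -0.63, copper handling (-0.14) at -0.47 and -0.60, and the glucocorticoid genes (0.14) at -0.055 and -0.19. With the upper quartile filter the exporters were at -0.18, the importers at 0.083 and the glucocorticoid genes at -0.32, and with a floor of 64 these were at -0.15 and copper at 0.0083. With an array left out the exporters ran from 0.013 to 0.14, the importers from -0.53 (without IBC-II) to -0.11 (without IBC-III), copper from -0.24 to 0.22 (without IBC-III) and the glucocorticoid genes from -0.22 (without IBC-I) to 0.34 (without IBC-III). HMOX1 changed sign from a mean of 0.13 to -0.12 with centring and -0.26 as deposited, and its means with an array left out were -0.34 (without IBC-III) to 0.51. With an array left out the mean of MT1G was -0.41 to 0.010, that of MT1H -0.43 to 0.16 and that of MT2A -0.37 to 0.064, each of the upper values being without IBC-II and of the opposite sign, while MT1E ran from -0.80 (without IBC-I) to -0.21 (without IBC-III) and MT1X from -0.55 (without IBC-I) to -0.20 (without IBC-II). The mean of MT1G was 0.027 when its probe sets were averaged. SLC39A10 was called by limma only with a floor of 64 (mean of -0.34), at which its 3 shDCD values were all raised to the floor and had no spread. SLC30A1 stayed at means of -1.11 to -0.52 under all alternatives. The cause of the other moves was not tested. Without _x_at probe sets no metallothionein was left to test. No paired analysis was possible because the lone pLKO array is shared by all 3 comparisons.

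With 1 control array, 3 different hairpins and 2 residual degrees of freedom, limma's 95% interval of the SLC30A1 mean ran from -2.19 to 0.79. That of MT2A ran from -1.82 to 1.39. Differences within these intervals were not excluded.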

Other observations

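The metallothioneins of chromosome 16 lie in 1 cluster, in which RefSeq places 11 protein-coding members in the order MT4, MT3, MT2A, MT1E, MT1M, MT1A, MT1B, MT1F, MT1G, MT1H and MT1X. The 3 tested genes on each side of it, looked up after seeing the data, differed in direction from one another. Before the cluster, NUDT21, a factor of mRNA 3' end processing, differed from pLKO by log2 values of -0.59, -0.19 and -1.57 in IBC-I, IBC-II and IBC-III, OGFOD1 by 0.41, -0.37 and 1.60, and BBS2 by -0.51, -0.46 and -1.20. After it, the nuclear pore gene NUP93 differed by 0.18, 0.50 and -0.43, the sodium chloride cotransporter gene SLC12A3 by 0.01, -0.48 and -0.20, and HERPUD1, a gene of the endoplasmic reticulum stress response, by -1.98, -0.84 and -1.98. In IBC-II, where the 9 metallothionein probe sets lay between -0.93 and -0.22, 5 of these 6 neighbours were lower than pLKO and NUP93 was higher. Of all probe sets tested 47.7% were lower there. Each neighbour was read by its brightest tested probe set, and a shift of the region was not tested. HERPUD1 was the neighbour furthest from pLKO in each comparison.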
